A study of Homo sapiens with 5 samples.

Results

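The genes that make cholesterol and fatty acids, with the genes that control them and those that move sterol out of the cell, were followed on 5 Affymetrix arrays of PC-3 cells. The list was given by name and holds 34 genes. Of these, 17 encode enzymes of sterol synthesis, 6 control the SREBP pathway or sterol traffic, 8 make or modify fatty acids and 3 serve sterol efflux or limit sterol uptake. Each gene was represented by 1 probe set that carries its symbol alone, the brightest by mean over the 5 arrays, and 31 of the 34 had such a probe set, out of 19775 genes on the array. FDFT1, CYP51A1 and FADS1 had none and are not analysed here.

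PC-3 is an established human line from a bone metastasis of a prostate adenocarcinoma. The arrays held 1 culture in normal 2D conditions, 1 spheroid culture, 1 culture that expressed a control short hairpin RNA against GFP (shGFP) and 2 cultures with hairpins against TRIB1 named shTRIB1-1 and shTRIB1-2, so that growth in 3 dimensions and dependence on TRIB1 could each be examined. No other treatment is given. The labels describe growth in 10 cm dishes for all 5 cultures, the spheroids included, and give neither the hairpins' sequences and vector nor whether a line was a clone or a pool. The 2D, spheroid and shGFP conditions have 1 array each, so differences among them have no replicate check. The TRIB1 hairpin arrays were treated as 2 samples of 1 group, as labelled. Nothing says that any of the samples came from repeated cultures, so p-values measure only the spread between these arrays.

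Cells make cholesterol from acetyl-CoA through mevalonate, isoprenoid diphosphates, squalene and lanosterol, and they make fatty acids from the same acetyl-CoA through malonyl-CoA. Most of these enzymes are switched on together by the SREBP transcription factors, which are held in the endoplasmic reticulum by SCAP and INSIG proteins while sterol is plentiful and are cut free at the Golgi when sterol falls. Oxysterols act in the other direction through the LXR receptors, which switch on the efflux pumps ABCA1 and ABCG1 and the ubiquitin ligase MYLIP. Prostate cancer cells are known for active lipid synthesis.

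The stretches of DNA just before the start of these genes are shown because SREBP proteins act there, usually beside the factor NF-Y, which binds CCAAT. RefSeq promoters (GRCh38.p14) were at hand for 30 of the 34 members, and FASN, SQLE, FDFT1 and ABCG1 were not in the table. In the 250 bases before the start, CCAAT on either strand (ATTGG on the other) was found for 13 of 15 sterol synthesis genes (86.7%) and 4 of 7 fatty acid synthesis genes (57.1%), against 37% of all 27305 genes in the table. The 8-letter string CACNCCAC, the core of the sterol regulatory element, read on the other strand as GTGGNGTG, was found for 7 of the 30 members (23.3%), ABCA1 among them, against 5.89% of all genes. It was chosen after several motif lengths had been searched. A match is a description of letters and not evidence of binding. The printed promoters are 250 bases each, 5′ to 3′ on the gene's strand, and capitals mark CACNCCAC and CCAAT on either strand.

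IDI1: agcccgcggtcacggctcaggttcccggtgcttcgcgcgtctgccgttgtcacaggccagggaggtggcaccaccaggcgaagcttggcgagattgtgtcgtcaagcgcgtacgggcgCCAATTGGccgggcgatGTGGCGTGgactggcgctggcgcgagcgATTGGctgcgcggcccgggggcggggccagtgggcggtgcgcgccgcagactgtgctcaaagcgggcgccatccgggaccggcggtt
ACACA: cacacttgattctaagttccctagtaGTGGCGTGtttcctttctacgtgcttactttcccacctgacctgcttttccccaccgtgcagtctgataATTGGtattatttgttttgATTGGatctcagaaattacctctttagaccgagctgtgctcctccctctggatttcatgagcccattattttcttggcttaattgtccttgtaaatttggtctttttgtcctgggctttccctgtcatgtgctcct
SC5D: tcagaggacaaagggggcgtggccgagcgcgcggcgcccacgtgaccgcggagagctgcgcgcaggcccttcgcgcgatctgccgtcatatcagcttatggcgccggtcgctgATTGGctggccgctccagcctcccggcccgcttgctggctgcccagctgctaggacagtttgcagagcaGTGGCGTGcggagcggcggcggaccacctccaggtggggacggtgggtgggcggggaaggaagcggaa
SCD: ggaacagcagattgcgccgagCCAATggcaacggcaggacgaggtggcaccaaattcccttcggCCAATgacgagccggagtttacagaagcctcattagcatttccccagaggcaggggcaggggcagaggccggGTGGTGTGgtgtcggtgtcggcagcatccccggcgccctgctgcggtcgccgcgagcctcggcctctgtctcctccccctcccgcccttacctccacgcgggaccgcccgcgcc
INSIG1: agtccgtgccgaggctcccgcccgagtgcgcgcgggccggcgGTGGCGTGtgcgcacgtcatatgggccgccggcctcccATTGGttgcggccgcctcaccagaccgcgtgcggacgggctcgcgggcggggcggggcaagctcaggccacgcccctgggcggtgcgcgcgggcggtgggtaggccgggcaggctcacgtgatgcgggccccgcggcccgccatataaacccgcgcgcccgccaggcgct
SREBF2: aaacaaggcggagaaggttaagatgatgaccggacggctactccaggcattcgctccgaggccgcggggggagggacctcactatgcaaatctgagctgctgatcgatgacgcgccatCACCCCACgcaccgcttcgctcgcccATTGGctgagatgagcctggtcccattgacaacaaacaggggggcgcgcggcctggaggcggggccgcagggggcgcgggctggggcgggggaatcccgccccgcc
LSS: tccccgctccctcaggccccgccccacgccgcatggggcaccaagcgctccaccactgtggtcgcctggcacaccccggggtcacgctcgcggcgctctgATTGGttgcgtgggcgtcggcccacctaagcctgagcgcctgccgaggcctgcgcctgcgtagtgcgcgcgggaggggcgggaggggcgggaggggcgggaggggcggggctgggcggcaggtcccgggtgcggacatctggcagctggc
FDPS: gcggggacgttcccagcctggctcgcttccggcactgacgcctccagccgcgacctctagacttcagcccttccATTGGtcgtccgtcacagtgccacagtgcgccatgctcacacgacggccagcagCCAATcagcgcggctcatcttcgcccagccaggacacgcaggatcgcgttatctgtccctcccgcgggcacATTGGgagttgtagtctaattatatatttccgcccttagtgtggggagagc

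IDI1 (chr10:1048887-1049136 (- strand)), ACACA (chr17:37299768-37300017 (- strand)), SC5D (chr11:121292602-121292851 (+ strand)) and SCD (chr10:100346983-100347232 (+ strand)) are the measured synthesis genes that hold CACNCCAC. INSIG1 (chr7:155297628-155297877 (+ strand)) and SREBF2 (chr22:41832855-41833104 (+ strand)) hold it among the control genes. LSS (chr21:46228775-46229024 (- strand)) and FDPS (chr1:155308616-155308865 (+ strand)) lack it but were among the lowest sterol genes in spheroids, and they were added, like INSIG1 and SREBF2, after the values were seen. In IDI1 the core lies 108 to 115 bases before the start, between CCAAT boxes on either side, the farther of which overlaps its own mirror image. In SREBF2 the core lies 125 to 132 bases before the start, followed by CCAAT on the other strand. IDI1 and ACACA have 3 starts in the table and SC5D has 2, of which the start with the core is shown.

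The level used below is the log2 of the intensity on an array. A difference of 1 is 2-fold. Genes below a level of 6 on every compared array were left out. Levels of different genes come from different probes and were not compared. The arrays had median intensities between 32.97 and 33.36. The epithelial markers KRT8, KRT18, KRT19, EPCAM and CDH1 lay between 9.39 and 13.19 on all arrays. In spheroids 4 of these 5 were lower than in 2D, with a median difference of -0.57, and their part in the lipid differences was not tested. The blood, endothelial and fibroblast markers lay between 2.71 and 6.25. The 4 prostate luminal markers measured lay between 4.27 and 7.09. TRIB1 itself stood at 11.04 in 2D, 11.23 in spheroids, 11.97 with the GFP hairpin, 11.91 with shTRIB1-1 and 11.76 with shTRIB1-2. Of the 3 single-symbol probe sets of TRIB1, only the brightest by mean is given here. It showed no clear depletion against shGFP, and on it all 3 hairpin arrays lay above the parental culture. Directions given for these libraries therefore follow their labels, and shTRIB1-1 and shTRIB1-2 stand for the arrays labelled so. The 5′ to 3′ signal ratio of actin ran from 0.436 to 0.445 with a hairpin, against 0.184 in 2D and 0.131 in spheroids, and that of the thr spike-in control from 0.271 to 0.315 against 0.157 and 0.152. The GAPDH ratio was 0.763 in spheroids, 0.895 in 2D and from 0.929 to 0.944 with a hairpin. Any comparison of a hairpin array with 2D or spheroids crosses the actin gap, and spheroids against 2D crosses the GAPDH one. Their part in the results below was not tested.

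The array of the 2D culture carried the highest signal for most synthesis genes. It was the highest of the 5 arrays for 12 of 15 sterol synthesis genes and 6 of 7 fatty acid synthesis genes, whereas this was so for 24.3% of 10843 genes in all. It was the lowest array for ABCA1 and MYLIP, against 21% of all genes, and ABCG1 was near background in both 2D and spheroids. Relative to each gene's mean over the 5 arrays, the median sterol synthesis gene stood at 0.71 in 2D, -0.10 in the spheroid array, -0.27 on shGFP, 0.0072 on shTRIB1-1 and -0.13 on shTRIB1-2. The fatty acid synthesis genes stood at 0.52, -0.40, -0.21, -0.10 and 0.065 in the same order. These orders rest on a single 2D array, and every difference from it shares that array.

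**Figure D1:**
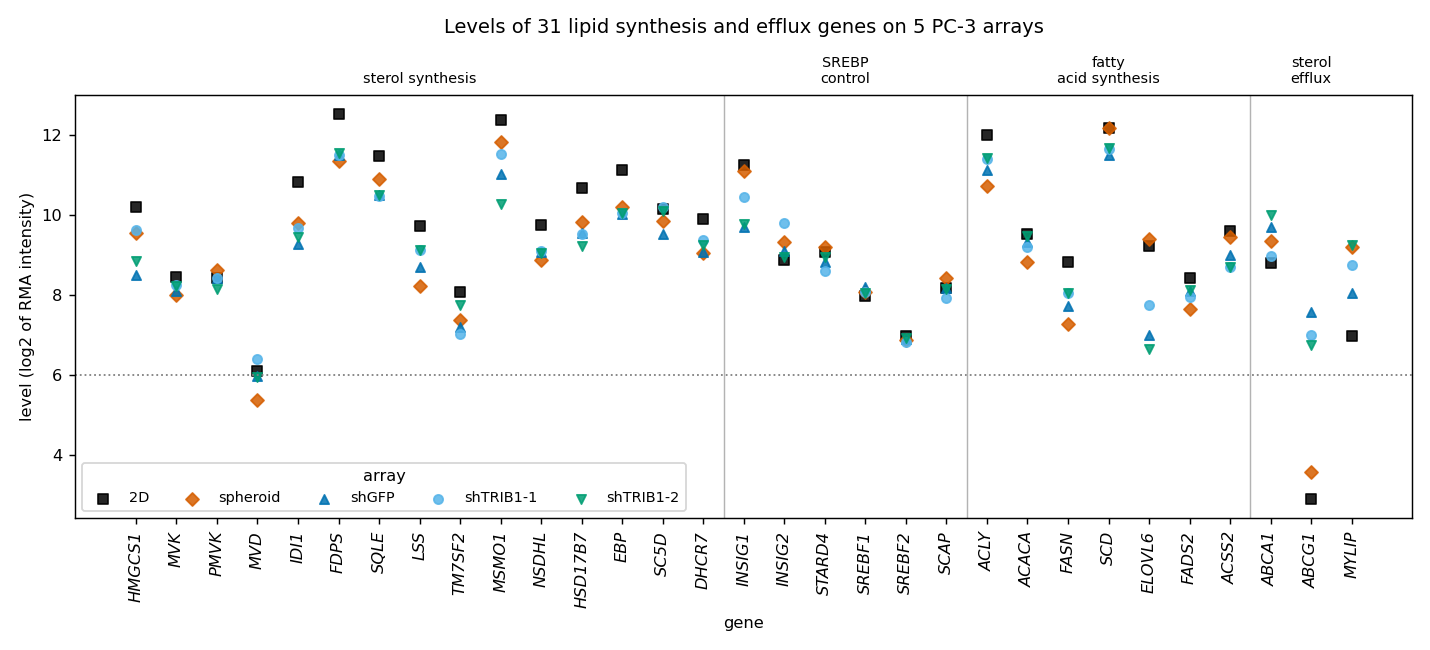
The level of each of the 31 measured genes (log2 of RMA intensity, vertical axis) on the 5 arrays, grouped by role, with the dotted line at the level of 6 used as a filter. The 2D array (black squares) is the highest for 12 of 15 sterol synthesis genes and the lowest for ABCA1 and MYLIP, and heights of different genes are not comparable.

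Spheroids were compared with 2D cells to see which genes differ with growth in 3 dimensions. Enzymes of sterol synthesis were lower in spheroids in 14 of 15 cases, where 50.9% of all genes were lower, with a median difference of -0.73 (1.66-fold), and fatty acid synthesis genes in 6 of 7, with a median of -0.69 (1.61-fold). The median over all 10570 genes tested was -0.0083. FASN, LSS, ACLY, FDPS and IDI1 were at least 2-fold lower and MYLIP was at least 2-fold higher. That is 5 of 30 members tested on the low side, where 5.23% of all genes were that low, and 1 on the high side, where 5.05% were that high. Only PMVK and ELOVL6 were higher among the 22 synthesis genes, and SCD was level. Taking each gene's median probe set value, 3 of 29 members tested were 2-fold lower, IDI1 differed by -0.053 and the fatty acid median was -0.29. LSS fell below the filter in this setting and was not tested. The fatty acid median was -0.27 over the 2 genes left without _s_at and _x_at probe sets, which can bind related transcripts.

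The steps from HMG-CoA to farnesyl diphosphate were lower in spheroids by varying amounts, PMVK excepted. FDPS, which joins isoprene units into farnesyl diphosphate, was at 12.54 in 2D, 11.35 in the spheroid array, 11.50 on shGFP and 11.51 and 11.56 on the TRIB1 hairpin arrays. It was high in 2D alone, and the other 4 arrays lay within a narrow range. Spheroid and 2D differed by -1.19. IDI1, the isopentenyl diphosphate isomerase, was at 10.84 in 2D, 9.81 in the spheroid array, 9.27 on shGFP and 9.68 and 9.46 on the hairpin arrays, and differed by -1.03. Its probe sets may also read near-identical pseudogenes. Here too the 2D array stood above the rest. HMGCS1, which makes the HMG-CoA that enters the pathway, was at 10.21 in 2D, 9.56 in the spheroid array, 8.50 on shGFP, 9.64 on shTRIB1-1 and 8.85 on shTRIB1-2. Its spheroid level was close to that of shTRIB1-1, and the lowest array was shGFP. The difference between spheroid and 2D was -0.65 on this probe set and -1.93 on its other probe set. No difference in the remaining steps reached 2-fold. The decarboxylase MVD differed by -0.73 at levels near 6, the kinase MVK by -0.45 and the kinase PMVK by 0.22.

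All 9 measured genes between squalene and cholesterol were lower in spheroids, with a median difference of -0.84. LSS, the cyclase that closes squalene epoxide into lanosterol, was at 9.72 in 2D, 8.22 in the spheroid array, 8.71 on shGFP, 9.12 on shTRIB1-1 and 9.13 on shTRIB1-2. The spheroid array was the lowest, at -1.50 (2.83-fold) from 2D. EBP, the sterol isomerase, was at 11.14 in 2D, 10.21 in the spheroid array, 10.03 on shGFP and 10.06 with each TRIB1 hairpin. It was high in 2D alone and differed by -0.93. HSD17B7, a ketoreductase with near-identical pseudogenes, was at 10.68 in 2D, 9.84 in the spheroid array, 9.55 on shGFP, 9.54 on shTRIB1-1 and 9.23 on shTRIB1-2, and differed by -0.84. The dehydrogenase NSDHL differed by -0.88 and the final reductase DHCR7 by -0.87. The reductase TM7SF2 followed at -0.71, the epoxidase SQLE at -0.59, the methyl oxidase MSMO1 at -0.53 and the desaturase SC5D at -0.29. No gene of this stretch was higher in spheroids.

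Fatty acid synthesis genes fell into a lower and a level set in spheroids. FASN, the fatty acid synthase, was at 8.82 in 2D, 7.27 in the spheroid array, 7.72 on shGFP and 8.05 on each hairpin array. The spheroid array was the lowest and differed from 2D by -1.54 (2.92-fold). ACLY, which cuts citrate into acetyl-CoA, was at 12.01 in 2D, 10.73 in the spheroid array, 11.14 on shGFP, 11.42 on shTRIB1-1 and 11.44 on shTRIB1-2, a difference of -1.28. As for FASN, 2D was the highest array and spheroid the lowest. ACACA, the acetyl-CoA carboxylase, was at 9.52 in 2D, 8.84 in the spheroid array, 9.33 on shGFP, 9.19 on shTRIB1-1 and 9.47 on shTRIB1-2, a difference of -0.69. The desaturase FADS2 differed by -0.78. In contrast, the elongase ELOVL6 differed by 0.15, the stearoyl-CoA desaturase SCD was at 12.19 on both arrays, and the acetyl-CoA synthetase ACSS2 differed by -0.16. On the probe sets used, the spheroid levels of these 3 lay near those in 2D. The other ELOVL6 probe sets were higher in spheroids by 0.30 and 0.99.

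The genes that control the pathway differed by between -0.14 and 0.45 between spheroids and 2D. SREBF1, which encodes SREBP-1, was at 7.98 in 2D, 8.09 in the spheroid array, 8.21 on shGFP, 8.09 on shTRIB1-1 and 8.06 on shTRIB1-2. SREBF2, which encodes SREBP-2, lay between 6.83 and 6.98 on all arrays. The escort SCAP was at 8.18 in 2D, 8.43 in the spheroid array, 8.19 on shGFP, 7.92 on shTRIB1-1 and 8.16 on shTRIB1-2. These 3 genes were near level across all arrays. INSIG1, an SREBP target that retains SCAP, was at 11.25 in 2D and 11.11 in the spheroid array, a difference of -0.14. Its relative INSIG2 was at 8.89 in 2D, 9.34 in the spheroid array, 9.11 on shGFP, 9.82 on shTRIB1-1 and 8.96 on shTRIB1-2, a difference of 0.45. The sterol carrier STARD4 was at 9.09, 9.19, 8.84, 8.60 and 8.96 in the same order. None of the 6 reached 2-fold, where 5.23% of all genes were lower and 5.05% higher by that much, so a count of 0 does not set them apart. Transcript levels do not measure how much SREBP is cut and active.

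The efflux genes MYLIP and ABCA1 passed the filter in this comparison and were higher in spheroids, where 47.3% of all genes were higher. MYLIP, a ubiquitin ligase that removes lipoprotein receptors from the cell surface, was at 6.98 in 2D, 9.21 in the spheroid array, 8.05 on shGFP, 8.75 on shTRIB1-1 and 9.26 on shTRIB1-2. The 2D array was the lowest, and the spheroid array was 4.71-fold above it. ABCA1, which loads cholesterol onto apolipoproteins, was at 8.81 in 2D, 9.36 in the spheroid array, 9.71 on shGFP, 8.99 on shTRIB1-1 and 9.99 on shTRIB1-2. The spheroid difference was 0.56. ABCG1 was below the filter on both arrays, at 2.89 and 3.58, and gives no usable difference.

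**Figure D2:**
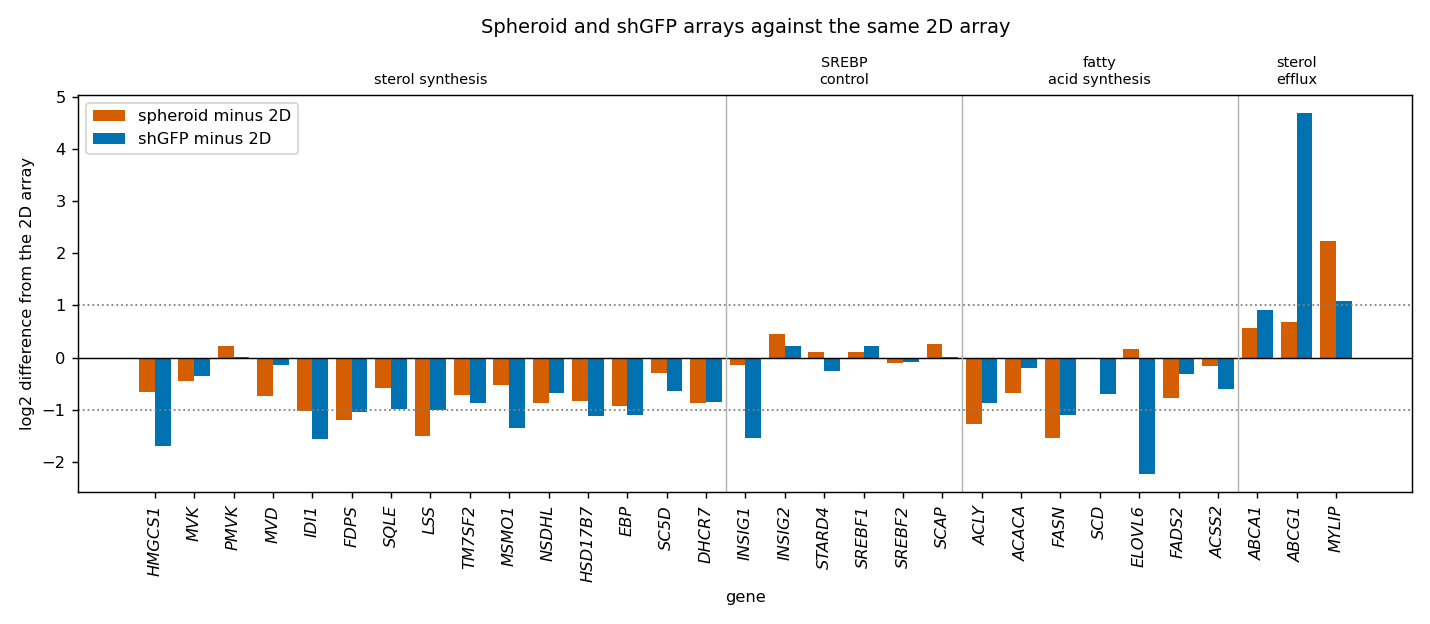
Log2 differences of the spheroid array (orange) and the shGFP array (blue) from the same 2D array for each of the 31 genes, grouped by role, with dotted lines at 2-fold. Bars for the synthesis genes point down with few exceptions (PMVK for both arrays, ELOVL6 and the level SCD for the spheroid array), and the ABCG1 bar of the spheroid array rests on levels below 6.

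The cell division genes MKI67, TOP2A, CCNB1, CDK1 and BUB1 each passed 2-fold toward lower levels in spheroids, with a median difference of -3.09, and all 5 were lower on shGFP than in 2D, with a median of -0.76. Their part in the lipid gene differences was not tested. In whole cultures, fewer cells that express a gene and less RNA per cell cannot be told apart.

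The shGFP array was set against the 2D array to see how far the control hairpin line lay from the parental culture, since shGFP is the reference for the TRIB1 hairpins. Sterol synthesis genes were lower on shGFP in 14 of 15 cases, where 47.3% of all genes were lower, with a median of -0.98 (1.97-fold), and fatty acid synthesis genes in 7 of 7, with a median of -0.69. The median over all 10450 genes tested was 0. Of 31 members, 10 were at least 2-fold lower, where 2.11% of all genes were that low, and MYLIP and ABCG1 were at least 2-fold higher, where 2.13% were that high. ABCG1 passed the filter through the shGFP array alone and supports nothing here. The comparison shares its 2D array with that of spheroids, so the values stand side by side and were not tested for likeness.

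The elongase ELOVL6 differed most among the synthesis genes. It was at 9.24 in 2D, 9.40 in the spheroid array, 7.00 on shGFP, 7.75 on shTRIB1-1 and 6.64 on shTRIB1-2. The arrays without a hairpin lay above all 3 arrays with one, and shGFP differed from 2D by -2.24 (4.72-fold). HMGCS1 differed by -1.70 and IDI1 by -1.57. INSIG1 was at 11.25 and 11.11 in the 2D and spheroid arrays, 9.71 on shGFP, 10.45 on shTRIB1-1 and 9.77 on shTRIB1-2. As for ELOVL6, the hairpin arrays were the lower set, and shGFP differed from 2D by -1.53. MSMO1 was at 12.38 in 2D, 11.85 in the spheroid array, 11.02 on shGFP, 11.54 on shTRIB1-1 and 10.28 on shTRIB1-2, and differed by -1.36. HSD17B7 differed by -1.13, EBP by -1.11, FASN by -1.10, FDPS by -1.04 and LSS by -1.01, which completes the 10 genes. With each gene's median probe set value, FASN differed by -0.55 and IDI1 by -0.65. SQLE lay just short of 2-fold, at 11.49 in 2D, 10.90 in the spheroid array and between 10.49 and 10.51 on the 3 hairpin arrays. PMVK was level at 8.42 in 2D and 8.44 on shGFP.

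MYLIP and ABCA1 ran the opposite way, and ABCG1 adds no support because it passed the filter through shGFP alone. ABCG1, a pump that passes cholesterol to high density lipoprotein, was at 2.89 in 2D and 3.58 in the spheroid array, both near background, and at 7.59 on shGFP, 7.01 on shTRIB1-1 and 6.75 on shTRIB1-2. Signal was thus clear on the hairpin arrays alone. The fitted difference of 4.69 between shGFP and 2D rests on a 2D signal near background and is not a size. The probe set with the next highest mean was at 4.62 and 4.72 without a hairpin and at 6.24, 5.84 and 5.77 with one. It reached 6 on shGFP alone and adds no support either. Another ran only from 3.78 in 2D to 4.24 on shTRIB1-2, and no further ABCG1 probe set reached 6. MYLIP was higher on shGFP by 1.08 and ABCA1 by 0.91, short of 2-fold. The control genes other than INSIG1 differed little, from -0.25 for STARD4 to 0.23 for SREBF1.

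**Figure D3:**
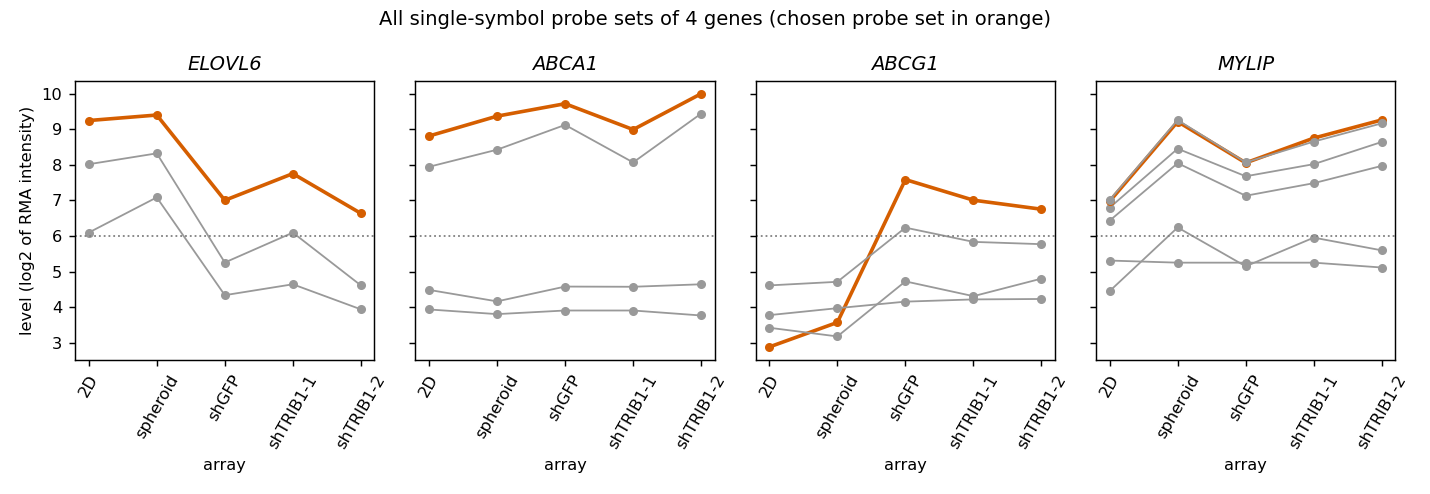
Levels (log2 of RMA intensity) on the 5 arrays for every single-symbol probe set of ELOVL6, ABCA1, ABCG1 and MYLIP, with the probe set used in the text in orange and the others in grey. All 3 ELOVL6 probe sets are lower on the hairpin arrays than on the 2D and spheroid arrays, and ABCG1 passes the level of 6 (dotted) on hairpin arrays alone.

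When shGFP and not 2D was the reference for spheroids, sterol synthesis genes were no longer lower. Of 14 tested, 9 were higher in spheroids than on shGFP, where 45.1% of all genes were higher, and 5 lower, where 51.7% were, with a median of 0.19, so the direction of this group turns with the reference array. Fatty acid synthesis genes kept a negative median of -0.41, with 4 of 7 lower. ACLY, FASN, FADS2 and ACACA differed by between -0.49 and -0.41, and LSS by -0.49. ELOVL6 was higher by 2.39, INSIG1 by 1.40 and HMGCS1 by 1.05. Members at least 2-fold higher numbered 4 of 30, where 4.77% of all genes were that high, among them MYLIP at 1.16. The only one 2-fold lower, where 4.59% were, was ABCG1, which was near background in spheroids. This reference was added after the data were seen, and it crosses the gap in actin ratios.

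Each TRIB1 hairpin array was set against shGFP, the comparison labelled as TRIB1 depletion, though TRIB1's brightest probe set was not clearly lower. None of the 31 members was at least 2-fold different on both arrays, where 0.361% of 10522 genes were higher and 0.0855% lower. Sterol synthesis genes had medians of 0.17 and 0.058 with the hairpins, 8 of 15 higher on both arrays and 3 lower on both, and all genes had medians of -0.027 and -0.0095. Fatty acid synthesis genes had a median of 0.15 with each hairpin, with 3 of 7 higher on both and 1 lower on both. Among all genes, 25% were higher on both arrays and 34.7% lower on both. Limma with Benjamini-Hochberg adjustment called 0 of the 31 members and 0 genes in all, with a smallest adjusted p of 0.951, and of 0.557 to 0.998 over the alternative fits. At an unadjusted p under 0.05 limma held 1 member, SC5D, and 356 genes (3.38%). With 1 residual degree of freedom the standard errors of the members ran from 0.075 to 0.78 on the log2 scale, so a missed threshold does not show that these genes were alike. The 5 cell division genes were lower with each hairpin, with medians of -0.40 and -0.55, and their part was not tested.

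A few synthesis genes lay above shGFP by nearly the same amount with each hairpin. SC5D, which makes the penultimate sterol precursor, was at 9.52 on shGFP, 10.20 on shTRIB1-1 and 10.10 on shTRIB1-2, a mean difference of 0.63 ± 0.070 (SD, n = 2), where the SD leaves out the spread of the single shGFP array. The limma interval at the 95% level ran from 0.11 to 1.14, with an unadjusted p of 0.0346. SC5D was at 10.16 in 2D and 9.87 in the spheroid array, so its hairpin levels lay near that in 2D. LSS differed by 0.42 on average, FASN by 0.33 and ACLY by 0.29, each with a close match of the hairpins and each below its 2D level. ACSS2 differed by -0.31 with each hairpin. On the probe sets used, the largest mean among synthesis genes was that of HMGCS1, at 0.74 ± 0.56 (SD, n = 2). It came from 1.14 with shTRIB1-1 and 0.35 with shTRIB1-2. The other HMGCS1 probe set differed by 0.51 and 0.39, so this rank rests on 1 probe set.

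Efflux genes did not move together with the hairpins. ABCG1 differed from shGFP by -0.58 and -0.83, and MYLIP was higher by 0.69 with shTRIB1-1 and 1.20 with shTRIB1-2. ABCA1 was at 9.71 on shGFP, 8.99 on shTRIB1-1 and 9.99 on shTRIB1-2, so the hairpins lay on opposite sides of the control. Only MYLIP with shTRIB1-2 and HMGCS1 with shTRIB1-1 passed 2-fold on a single hairpin array on the probe sets used. HMGCS1 was at 0.51 on its other probe set, and at 0.29 against the mean of 2D and shGFP. For shTRIB1-2, 1.34% of all genes were at least 2-fold higher, and for shTRIB1-1, 2%. No member was 2-fold lower on a single hairpin array, where 1.86% of genes were with shTRIB1-1 and 0.817% with shTRIB1-2.

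**Figure D4:**
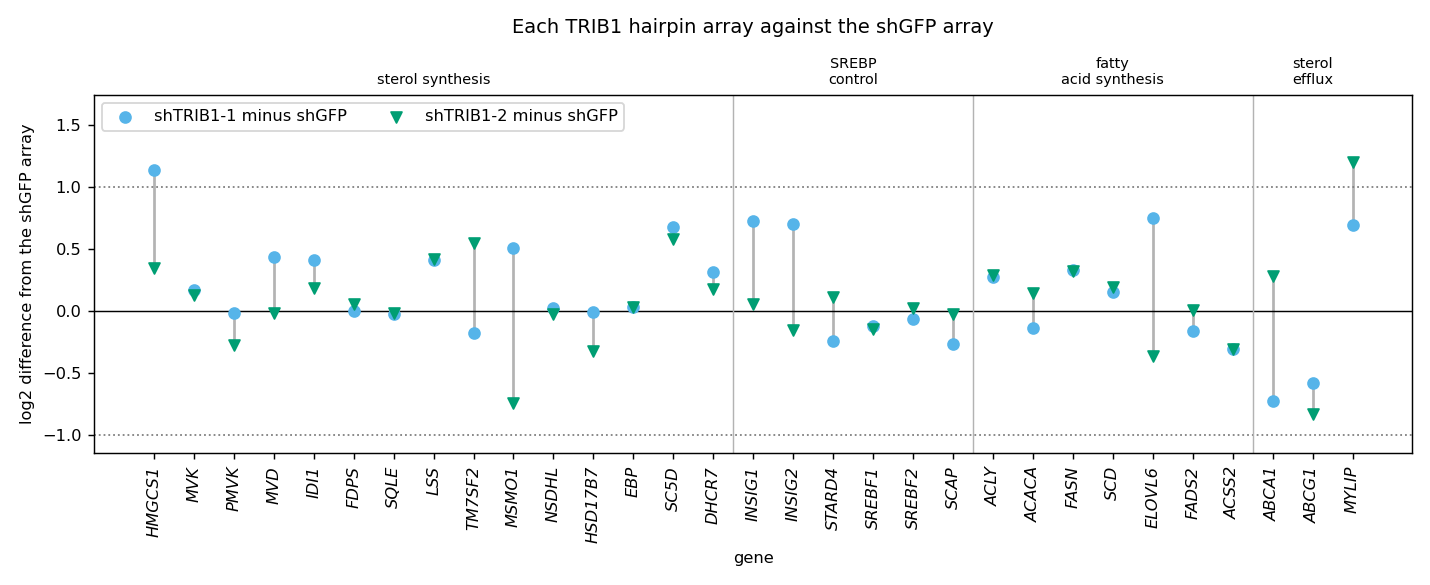
Log2 difference of the shTRIB1-1 array (circles) and the shTRIB1-2 array (triangles) from the shGFP array for each of the 31 genes, grouped by role, with a grey bar joining the 2 hairpins and dotted lines at 2-fold. MSMO1, ELOVL6 and ABCA1 have the widest gaps between hairpins, and no gene passes 2-fold with both.

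The hairpins also differed from each other. MSMO1 was at 11.54 on shTRIB1-1 and 10.28 on shTRIB1-2, a difference of -1.26, with shGFP between them at 11.02. For ELOVL6 the difference was -1.12, for INSIG2 -0.86 and for HMGCS1 -0.79, and all 4 were thus lower on shTRIB1-2. ABCA1 was higher on shTRIB1-2 by 1.01, or 0.72 with its median probe set value. In all, 2 members were at least 2-fold lower on shTRIB1-2, where 2.04% of 10412 genes were that low, and 1 was higher, where 3.07% were. With 1 array per hairpin this difference has no replicate check.

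Set against 2D, the TRIB1 hairpin arrays were low for synthesis genes, as shGFP was. Sterol synthesis genes had medians of -0.66 with shTRIB1-1 and -0.71 with shTRIB1-2, with 12 and 15 of 15 lower, where 51.8% and 49.3% of all genes were lower, and fatty acid synthesis genes were lower in 7 of 7 cases with each hairpin. At least 2-fold lower were 7 of 31 members with each hairpin, where 4.85% and 4.4% of all genes were that low. At least 2-fold higher were 2 and 3 members, where 4.13% and 4.37% were that high. Both counts include ABCG1, which passed the filter through the hairpin arrays alone and supports nothing here. The sign of the TRIB1 hairpin medians for the synthesis genes therefore depended on whether shGFP or 2D was the reference array.

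Other genes of the pathway, from lists chosen with earlier results of these data known, followed the members only in part. Among 10 further sterol genes, 8 were lower in spheroids and 8 on shGFP than in 2D, where 50.9% and 47.3% of all genes were lower, with medians of -0.39 and -0.63. ACAT2, the thiolase that supplies acetoacetyl-CoA to HMGCS1, was at 11.93 in 2D and between 9.80 and 10.15 on the other 4 arrays, and differed by -2.13 in spheroids and -1.95 on shGFP. TMEM97, a sterol-regulated membrane protein, was at 11.23 in 2D and differed by -1.94 and -1.55. The array of 2D cells stood alone at the top for both. LPIN1, a phosphatidate phosphatase, differed by -1.29 on shGFP. NPC1, which exports cholesterol from lysosomes, went the other way and was higher in spheroids by 1.68.

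Against shGFP the 10 further sterol genes had medians of 0.24 with shTRIB1-1 and 0.10 with shTRIB1-2. Of these, 6 were higher on both arrays and 3 lower on both, where 25% and 34.7% of all genes were. The most raised were the cholesterol esterifying enzyme SOAT1, by 1.25 with shTRIB1-1 and 0.44 with shTRIB1-2, and the sterol reductase LBR, by 1.04 and 0.42. The 8 measured genes of SREBP processing and its partner factors had medians of -0.028 in spheroids and 0.068 on shGFP. The subunit NFYA of NF-Y differed from shGFP by -1.55 with shTRIB1-1 and 0.58 with shTRIB1-2. Of 14 further fatty acid genes tested, 7 were lower and 7 higher in spheroids, among them the acyl-CoA synthetase ACSL1 at 0.89 and the desaturase SCD5 at -0.83. The synthetase ACSL5 reached the filter in spheroids alone, at 6.82 against 5.14 in 2D. Of 5 further LXR-related genes measured, 3 were higher in spheroids and 1 lower, where 47.3% and 50.9% of all genes were, with a median of 0.14. The largest differences were those of the phosphodiesterase SMPDL3A at 1.00, just short of 2-fold, and the receptor NR1H3 at 0.88. LPCAT3 was lower by 0.22.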

How the data were processed

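RNA of 5 PC-3 cultures was hybridised to 5 Affymetrix arrays (54675 probe sets). The deposited values are intensity values, which the authors computed by RMA, per the submitters' processing notes. Their linear scale was read from the values, and no source used here states the RMA version. RMA includes quantile normalization between arrays, which hides a change that moves most genes alike. Probe sets were named from the platform annotation: 41097 carried 1 symbol, 1801 several and 11777 none.

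Log2 was taken without a pseudocount, and each gene was given its brightest single-symbol probe set by mean. Groups came from the sample titles. Limma 3.58.1 (R 4.3.3), with an intensity trend, was fitted to the shGFP and TRIB1 hairpin arrays over all 10522 genes at a level of at least 6 on any of them. It was also run on simulated data, but recovery of changed genes was required only with noise far below that between the hairpin arrays. That check therefore does not show what the fit could find in these data. Other comparisons have 1 array a side and no test. The members and lists were chosen with earlier results of these data known. Members at least 2-fold different in the spheroid, shGFP and hairpin comparisons, and the largest differences per role, are named, and up to 3 genes of each further list per comparison. The number of arrays limits the precision. Alternatives were other probe set rules, level filters of 8 and none, a pseudocount of 16, median centring, other reference arrays and leaving out either hairpin. HSD17B7 and IDI1 have near-identical copies, so their signal is uncertain.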

Additional observations from a re-analysis of the deposited data

How the results depend on the processing

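Against the mean of 2D and shGFP, the spheroid median of sterol synthesis genes was -0.27. Of 31 members, 1 was 2-fold lower, ABCG1, which was near background in 2D and spheroids, and 2 were higher, ELOVL6 and MYLIP. No synthesis gene was 2-fold lower. With this reference the TRIB1 hairpin medians turned to -0.25 for sterol and -0.22 for fatty acid synthesis. The 2 members 2-fold different on both hairpins were MYLIP and ABCG1, both higher and neither a synthesis gene, and ABCG1 rests on a 2D signal near background. Shares over all genes were not computed for this reference. Chosen after seeing the data, shGFP alone as the reference turned the spheroid sterol median to 0.19, and 2D alone turned the hairpin medians to -0.69 and -0.58. With each gene's median probe set value, the spheroid fatty acid median was -0.29 and 3 of 29 members tested were 2-fold lower, with LSS below the filter. Without _s_at and _x_at probe sets the spheroid fatty acid median was -0.27 and that of shGFP -1.22, over the 2 genes that were left. In that setting 3 of 18 members were 2-fold lower in spheroids, against 5 of 30 in the main setting. The causes were not tested. With a single hairpin, the sterol median was 0.058 or 0.17, the fatty acid median 0.15 with either, and 1 member was 2-fold different. Limma could not be run with a single hairpin, and called 0 genes in every other fit, with a smallest adjusted p from 0.557 to 0.998. Counting the limma fits and single-hairpin values, 70 recomputed medians and counts were scored as unchanged, 11 as moved and 5 as reversed in sign. Counts of 0 that stayed at 0, those of limma among them, were scored as unchanged but have no direction. The other unchanged values stayed within the pooled SD between hairpin arrays (0.341) or within 1.5 times the count. That SD exceeds the hairpin medians against shGFP of 0.15 for sterol and 0.17 for fatty acid synthesis, so for these it is no strict limit. At a level filter of 8 they were 0.031 and 0.089. Of 23 single-gene differences past 2-fold, none changed sign, but 12 fell short of 2-fold under at least 1 alternative. In spheroids these were IDI1 (down to -0.053), FDPS (-0.67), ACLY (-0.85), FASN (-0.88) and LSS (-0.995). On shGFP they were FASN (-0.55), IDI1 (-0.65), LSS (-0.98) and MYLIP (0.79). With the hairpins they were HMGCS1 (0.29), MYLIP (0.90) and, between hairpins, ABCA1 (0.72). ABCG1 on shGFP was at 3.15 with a pseudocount of 16. Levels near or below 6, as for MVD and for ABCG1 in 2D, limit what the signal can show.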

Other observations

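Probe sets of a gene ran in parallel for some members and not for others. The 3 SQLE probe sets above 6 on all arrays differed from 2D by between -0.81 and -0.59 in spheroids and between -1.47 and -0.83 on shGFP. The 3 INSIG1 probe sets differed by between -0.26 and -0.14 in spheroids and by between -1.53 and -1.31 on shGFP. For IDI1, the 2 bright probe sets differed by -1.03 and -0.89 in spheroids, whereas a dimmer probe set, at 6.15 in 2D and 7.04 in spheroids, differed by 0.88. Its other probe set was below 6 on all arrays. For HMGCS1, the second probe set was at 9.83 in 2D, 7.89 in the spheroid array, 7.85 on shGFP and 8.37 and 8.24 on the TRIB1 hairpin arrays. On that probe set the spheroid array lay with the hairpin arrays, and on the brighter probe set it lay above shGFP. The 4 SCD probe sets differed by -0.45, -0.00046, 0.052 and 0.34 in spheroids, and with shTRIB1-2 the one used differed from shGFP by 0.19 and the other 3 by between -0.33 and -0.094.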
